A study of Mus musculus with 6 samples.

Results

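Nptx1, Nptx2, Unc13c, Syt1, Prima1 and Pcsk2 are 6 genes best known from synapses and from regulated secretion in neurons and endocrine cells, and their RNA was followed here in cultured mouse cartilage cells. They are 6 of the 44788 entries of the count table, and they were chosen by their measured values, for large changes in these same libraries. Their levels and fold changes are therefore a description, with no test and no p-value. Tests are given only for related genes. The cells were femoral epiphyseal chondrocytes of C57BL/6 mice grown in DMEM/F12 with 10% FBS, and total RNA was sequenced on the Ion Proton platform. There were 3 groups of 2 libraries each. In the TGF-alpha plus gefitinib group, 10 µM gefitinib was added 30 min ahead of 10 ng/ml TGF-alpha and both then stayed on the cells for 48 h. The TGF-alpha group had 10 ng/ml TGF-alpha for 48 h. The control group had vehicle for 48 h. Per the labels' protocols every group, control included, carried 0.1% DMSO, whereas the series text names PBS for the control. The labels give the age as postnatal day 1, while other text of the series says P2 without explaining it. No source says whether the 2 libraries of a group came from separate cultures or animals, so the p-values below measure only the spread between these libraries, which may be technical. No group with gefitinib alone was analysed here, so an effect of gefitinib apart from TGF-alpha cannot be told apart from the rest.

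TGF-alpha is a secreted ligand of the EGF receptor, and gefitinib blocks the kinase activity of that receptor. Regulated secretion uses vesicles that wait at the cell membrane until calcium enters. Proteins of the UNC13 family prime such vesicles by readying the SNARE fusion machinery, and synaptotagmins sense the calcium that triggers fusion. Peptide hormones travel in dense core granules, where proprotein convertases such as PCSK2 cut them from larger precursors. The neuronal pentraxins NPTX1 and NPTX2 are secreted proteins that gather AMPA-type glutamate receptors at synapses, and PRIMA1 anchors acetylcholinesterase in neuronal membranes. Chondrocytes are secretory cells of another kind, which release collagen and proteoglycan continuously.

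All 6 genes had a count in every library and passed the filter on low counts, Nptx2 only through the TGF-alpha libraries in which it was high. Levels are given as CPM, counts scaled to a common library size after correction by the TMM method. Each of the 6 genes is protein-coding and each lies on a chromosome of its own in GRCm38, by the GENCODE M21 annotation. Nptx1 lies at chr11:119538719-119547753 on the minus strand and Nptx2 at chr5:144545902-144557478 on the plus strand. Unc13c spans chr9:73479422-73968966, Syt1 chr10:108497650-109010982 and Prima1 chr12:103196908-103242150, all on the minus strand. Pcsk2 spans chr2:143546156-143816285 on the plus strand.

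Promoter windows of 4 of the 6 genes are shown because they separate the genes in a property that was not used to choose them, their content of the dinucleotide CG (CpG). Each window runs 250 bases before to 50 bases after a RefSeq start site in GRCm38.p6, 5′ to 3′ on the gene's strand, and capitals mark every CpG. They lie at chr9:73968988-73969287 for Unc13c, chr10:109010926-109011225 for the first of the 2 windows of Syt1, chr12:103242097-103242396 for Prima1 and chr2:143545883-143546182 for Pcsk2, on the minus strand for all but Pcsk2, which is on the plus strand.
Unc13c: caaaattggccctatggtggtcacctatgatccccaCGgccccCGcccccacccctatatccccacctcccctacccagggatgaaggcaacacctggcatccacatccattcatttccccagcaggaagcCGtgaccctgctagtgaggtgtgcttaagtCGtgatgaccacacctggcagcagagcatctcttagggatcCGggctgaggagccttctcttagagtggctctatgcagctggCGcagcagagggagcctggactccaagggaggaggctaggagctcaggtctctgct
Syt1: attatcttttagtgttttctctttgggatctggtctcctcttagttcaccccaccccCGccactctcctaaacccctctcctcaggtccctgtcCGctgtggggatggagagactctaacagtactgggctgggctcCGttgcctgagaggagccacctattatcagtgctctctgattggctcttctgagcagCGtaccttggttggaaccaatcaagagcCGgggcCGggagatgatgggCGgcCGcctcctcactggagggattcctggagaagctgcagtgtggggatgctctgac
Prima1: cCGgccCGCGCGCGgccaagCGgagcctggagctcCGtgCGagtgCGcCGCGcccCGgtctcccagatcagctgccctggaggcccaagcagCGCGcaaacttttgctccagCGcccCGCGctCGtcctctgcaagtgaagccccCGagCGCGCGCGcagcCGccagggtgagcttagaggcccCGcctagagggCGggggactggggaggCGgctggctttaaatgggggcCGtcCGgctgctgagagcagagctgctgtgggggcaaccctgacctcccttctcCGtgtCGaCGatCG
Pcsk2: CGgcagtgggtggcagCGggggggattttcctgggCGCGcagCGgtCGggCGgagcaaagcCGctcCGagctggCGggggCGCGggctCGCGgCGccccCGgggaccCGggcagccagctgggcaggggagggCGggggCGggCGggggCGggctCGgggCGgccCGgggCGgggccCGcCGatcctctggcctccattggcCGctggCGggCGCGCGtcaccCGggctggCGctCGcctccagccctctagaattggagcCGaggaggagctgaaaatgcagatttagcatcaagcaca

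The Pcsk2 window held 36 CpG and the Prima1 window 33, against 6 in the Unc13c window and 8 in the Syt1 window shown. Over all 32851 mouse windows of the same table the median was 7, and 93.8% of windows had fewer CpG than the window of Pcsk2 and 91.4% fewer than that of Prima1. The GC content was 76.3% for Pcsk2 and 71.7% for Prima1, against 59.3% for Unc13c and 56.7% for Syt1, with a median of 52.7% over all windows. The second Syt1 window, which is not shown, had 6 CpG and a GC content of 44.0%. Among these 4 genes, 1 that was higher with TGF-alpha (Pcsk2) and 1 that was lower (Prima1) had many CpG. Likewise 1 of each (Unc13c and Syt1) had few. Nptx1 and Nptx2 had no window, and 4 genes chosen for their changes cannot show whether CpG content goes with direction.

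The 5 windows were also searched on both strands for 7 short motifs. None held the AP-1 site TGANTCA, which 7.81% of all windows hold, the ETS core CCGGAAG, which 8.86% hold, the full cyclic AMP response element TGACGTCA, which 1.79% hold, the TATA box TATAAA, which 13.6% hold, or the CArG box, which 1.63% hold. The shorter element CGTCA, which lies inside the full element, was found once, in the Pcsk2 window, 34 bases before the start, and 20.8% of all windows hold it. The E-box CANNTG, which 72.3% of windows hold, was found 3 times in the Unc13c window, 3 times in the second Syt1 window, 2 times in that of Prima1 and 1 time in that of Pcsk2, and not in the first Syt1 window. These are matches of letters in 300 bases and nothing more.

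With TGF-alpha, Nptx1, Nptx2, Unc13c and Pcsk2 were higher than in control, and Syt1 and Prima1 were lower. Among all 15362 genes tested, edgeR called 15.9% higher and 14.0% lower in this comparison. Since the 6 genes were picked for these changes, nothing is read from their count against that share. After TGF-alpha plus gefitinib every one of the 6 differed from TGF-alpha in the opposite direction. In that comparison 17.0% of all genes tested were called higher and 16.9% lower. Both comparisons use the same TGF-alpha libraries.

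**Figure D1:**
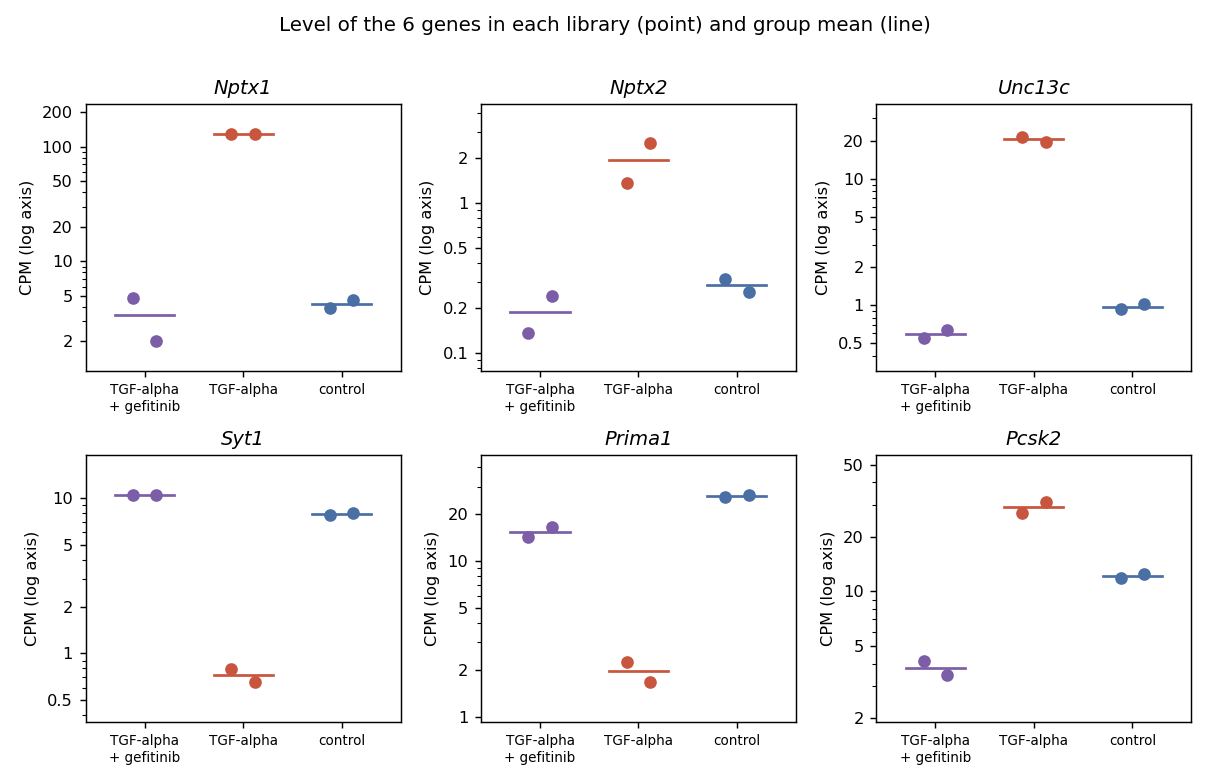
CPM of the 6 genes on a log axis in TGF-alpha plus gefitinib, TGF-alpha and control libraries, each point 1 library and each line the mean of 2. Nptx1 stands at 128 and 129.7 CPM in the TGF-alpha libraries and under 5 CPM in the other libraries, Syt1 and Prima1 show the opposite pattern, and Pcsk2 is lowest with TGF-alpha plus gefitinib.

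Nptx1, the secreted pentraxin, showed the largest difference of the 6. It was at 4.80 and 2.00 CPM in the TGF-alpha plus gefitinib libraries, at 129.7 and 128 CPM in the TGF-alpha libraries and at 3.90 and 4.58 CPM in the control libraries. The TGF-alpha libraries lay far above all others, and the libraries of the other two groups overlapped. The counts behind these levels were 70 and 25 reads with gefitinib, 1798 and 1757 with TGF-alpha alone and 50 and 72 in control. TGF-alpha over control gave 30.1-fold, a log2 fold change of 4.91 ± 0.16 (SE), the 2nd largest rise in size among all genes tested. TGF-alpha plus gefitinib over TGF-alpha gave a log2 fold change of -5.20 ± 0.17 (SE), or 36.8-fold lower.

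The 2 TGF-alpha plus gefitinib libraries differed from each other in Nptx1 beyond counting error, with 95% Poisson intervals of 3.74 to 6.06 CPM and of 1.29 to 2.95 CPM. These and all counting intervals below cover counting error only. Without replicate 1 of that group Nptx1 was 64.7-fold lower with TGF-alpha plus gefitinib than with TGF-alpha, and without replicate 2 it was 26.7-fold lower. Against control, the log2 fold change of TGF-alpha plus gefitinib was -0.29 ± 0.26 (SE). It was -1.10 without replicate 1 of the gefitinib group and 0.17 without replicate 2, so its direction rests on 1 library.

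Nptx2, the pentraxin that neurons induce on activity, was scarce throughout. It had 2 and 3 reads in the TGF-alpha plus gefitinib libraries, 19 and 35 in the TGF-alpha libraries and 4 and 4 in the control libraries. As levels these are 0.137 and 0.240 CPM with TGF-alpha plus gefitinib, 1.37 and 2.54 CPM with TGF-alpha and 0.312 and 0.255 CPM in control. Every TGF-alpha library was above every other library, and every library with gefitinib was below every control library. On summed counts the level was 6.97-fold higher with TGF-alpha than in control (95% counting interval 3.30 to 17.0). It was 10.6-fold lower with TGF-alpha plus gefitinib than with TGF-alpha (4.27 to 33.9). The ratio of TGF-alpha plus gefitinib to control was 0.658, with a counting interval of 0.169 to 2.28.

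Unc13c, which encodes the vesicle-priming protein Munc13-3, followed a pattern close to that of Nptx1. It was at 0.548 and 0.640 CPM with TGF-alpha plus gefitinib, at 21.5 and 19.7 CPM with TGF-alpha and at 0.937 and 1.02 CPM in control. Only the TGF-alpha libraries were high, and the libraries with gefitinib lay under those of the control. The log2 fold change of TGF-alpha over control was 4.38 ± 0.22 (SE), or 20.8-fold. That of TGF-alpha plus gefitinib over TGF-alpha was -5.10 ± 0.24 (SE). The level rests on 8 and 8 reads with TGF-alpha plus gefitinib and on 12 and 16 reads in control, and the ratio of these groups had a 95% counting interval of 0.304 to 1.15.

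Syt1, the calcium sensor for fast transmitter release, was nearly lost with TGF-alpha. It was at 10.4 and 10.4 CPM with TGF-alpha plus gefitinib, at 0.793 and 0.654 CPM with TGF-alpha and at 7.81 and 8.02 CPM in control. The 2 libraries of each group lay close together and no groups overlapped. TGF-alpha over control gave a log2 fold change of -3.43 ± 0.26 (SE), 10.8-fold lower, on 11 and 9 reads in the TGF-alpha libraries. TGF-alpha plus gefitinib over TGF-alpha gave 3.83 ± 0.25 (SE) on the log2 scale, 14.2-fold higher. Against control the level with TGF-alpha plus gefitinib was higher by 0.39 ± 0.17 (SE) on the log2 scale.

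Prima1, the membrane anchor of acetylcholinesterase, was also low with TGF-alpha. It was at 14.3 and 16.5 CPM with TGF-alpha plus gefitinib, at 2.24 and 1.67 CPM with TGF-alpha and at 25.9 and 26.4 CPM in control. The 3 groups did not overlap, and the gefitinib libraries lay between the other two. The log2 fold change was -3.74 ± 0.17 (SE) for TGF-alpha over control and 2.96 ± 0.18 (SE) for TGF-alpha plus gefitinib over TGF-alpha. Its level with TGF-alpha plus gefitinib was 58.3% of that in control, a log2 fold change of -0.77 ± 0.12 (SE).

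Pcsk2, a convertase of the regulated secretory pathway, was highest with TGF-alpha and lowest with TGF-alpha plus gefitinib. It was at 4.11 and 3.44 CPM with TGF-alpha plus gefitinib, at 27.1 and 31.2 CPM with TGF-alpha and at 11.9 and 12.4 CPM in control. No groups overlapped, and the libraries with gefitinib were the lowest. TGF-alpha over control gave 2.40-fold, a log2 fold change of 1.26 ± 0.12 (SE), which was the 459th largest rise. TGF-alpha plus gefitinib over TGF-alpha gave -2.94 ± 0.15 (SE). Its level with TGF-alpha plus gefitinib was 31.2% of that in control, a log2 fold change of -1.68 ± 0.16 (SE), the lowest of the 6 in that comparison. An antisense gene, Pcsk2os1, shares 260 exonic bases with Pcsk2, and it had 15 reads in all 6 libraries together. Whether counting used strand is not stated.

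To compare levels between genes, CPM was divided by the merged exon length in kb. On this scale, with TGF-alpha plus gefitinib Prima1 came first at 12.3 ± 1.25 CPM per kb, then Syt1 at 1.25, Nptx1 at 0.651, Pcsk2 at 0.477, Nptx2 at 0.0743 and Unc13c at 0.0675. There Nptx1 and Pcsk2 did not differ beyond their spread, and neither did Nptx2 and Unc13c. With TGF-alpha, Nptx1 came first at 24.7 ± 0.259 CPM per kb (SD, n = 2), followed by Pcsk2 at 3.69, Unc13c at 2.34, Prima1 at 1.56, Nptx2 at 0.772 and Syt1 at 0.0868, each apart from the next. In control the order was Prima1 at 20.9 ± 0.290 CPM per kb, Pcsk2 at 1.53, Syt1 at 0.949, Nptx1 at 0.813, Nptx2 at 0.112 and Unc13c at 0.111, the last pair being within their spread. Prima1 was thus the most abundant transcript per length of the 6 with TGF-alpha plus gefitinib and in control, and Nptx1 the most abundant with TGF-alpha.

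Among themselves the 6 genes were compared by the root mean square difference of their centred log2 CPM over the 6 libraries. Syt1 and Prima1 were closest at 0.48, then Nptx1 and Unc13c at 0.49, and Nptx2 and Pcsk2 at 0.62. The 2 pentraxins, Nptx1 and Nptx2, were 1.37 apart, on a scale where a prior count of 2 draws low genes such as Nptx2 toward no difference. Over the whole table, the genes nearest to Nptx1 were Unc13c, Prss22 at 0.54, Arc at 0.62, Il18rap at 0.74 and Spp1 at 0.75. Spp1, which encodes osteopontin, averaged 447 ± 9.35 CPM with TGF-alpha plus gefitinib, 6161 ± 124 CPM with TGF-alpha and 480.1 ± 2.62 CPM in control (SD, n = 2 each). Unc13c was nearest to Arc at 0.30, Il1rl1 at 0.39 and Spp1 at 0.42.

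Nptx2 was nearest to Il31ra and Gm12508, both at 0.22, and to Spry4 at 0.27. Spry4, which encodes an inhibitor of receptor tyrosine kinase signalling, averaged 0.405 ± 0.00801 CPM with TGF-alpha plus gefitinib, 2.46 ± 0.424 CPM with TGF-alpha and 0.503 ± 0.171 CPM in control. Syt1 was nearest to Npr3 at 0.19, Fras1 at 0.27 and Tmtc1 at 0.28. Npr3, a natriuretic peptide receptor, averaged 188 ± 4.36 CPM with TGF-alpha plus gefitinib, 20.2 ± 0.0876 CPM with TGF-alpha and 181 ± 3.50 CPM in control. Prima1 was nearest to Pcp4 at 0.18, Fras1 at 0.24 and Sfrp2 at 0.25, and Pcsk2 to AW551984 at 0.13, Arhgap8 at 0.25 and Dio3os at 0.25. Fras1, near both Syt1 and Prima1, averaged 15.7 ± 1.06 CPM with TGF-alpha plus gefitinib, 1.52 ± 0.196 CPM with TGF-alpha and 18.7 ± 0.543 CPM in control.

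The relatives and partners of the 6 genes were put into 12 functional lists, chosen with earlier results of these data known, which hold 237 other genes. Of these, 122 passed the filter on low counts and were tested, and 55 had no count in any library. With TGF-alpha against control, 39 of the 122 rose (32.0%) and 17 fell (13.9%), beside 15.9% and 14.0% of all genes tested. With TGF-alpha plus gefitinib against TGF-alpha, 18 rose (14.8%) and 37 fell (30.3%), beside 17.0% and 16.9%. The median size of the log2 fold change with TGF-alpha was 0.34 over the 122 genes and 0.23 over all genes tested. Without the list of activity-regulated genes, 28 of 102 rose with TGF-alpha (27.5%) and 15 fell (14.7%), and with gefitinib added 17 rose (16.7%) and 24 fell (23.5%). With TGF-alpha plus gefitinib against control, 6 of the 122 rose (4.92%) and 7 fell (5.74%), beside 5.27% and 4.26% of all genes tested. The last count of 13 came to 3 without control replicate 1, to 4 without control replicate 2 and to 7 without TGF-alpha plus gefitinib replicate 2.

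**Figure D2:**
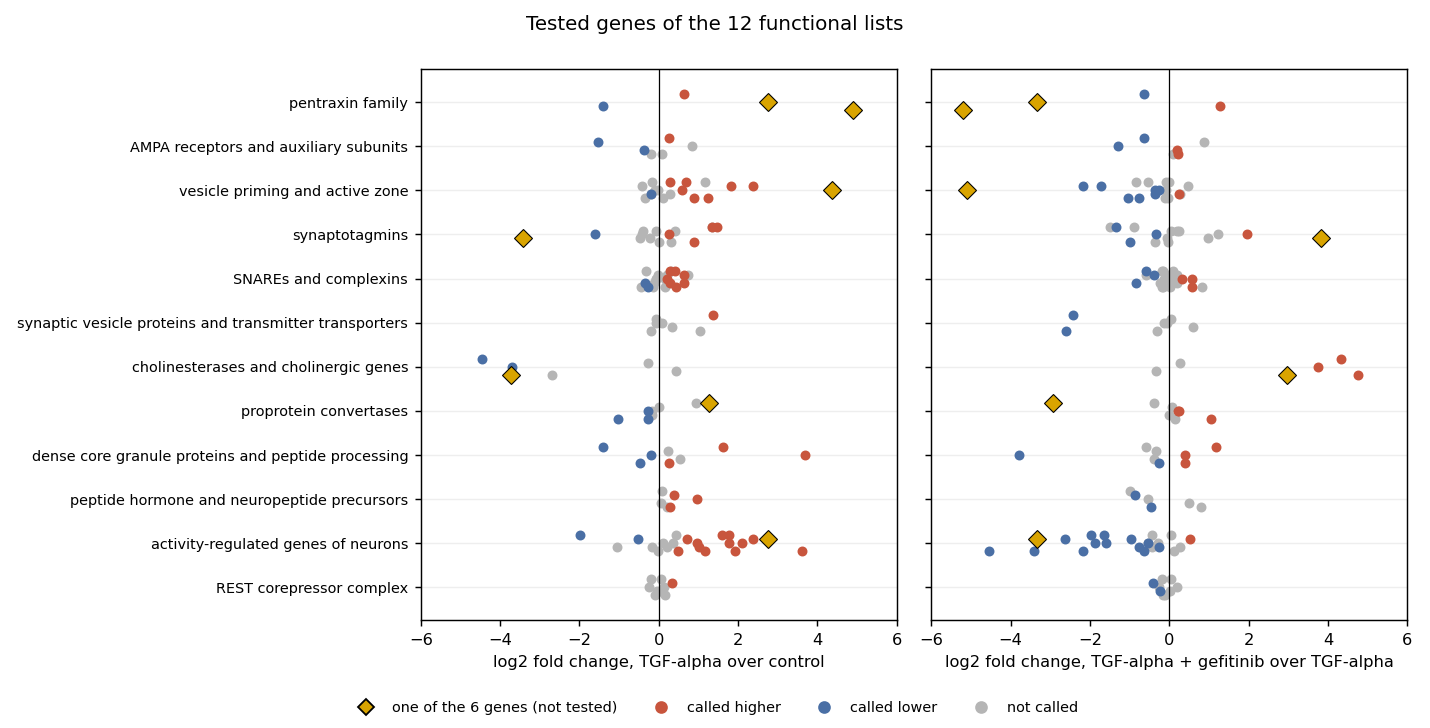
Log2 fold change of every tested gene of the 12 lists, for TGF-alpha over control (left) and TGF-alpha plus gefitinib over TGF-alpha (right). Circles are coloured by the edgeR call, diamonds are the 6 chosen genes, and a gene on 2 lists appears in both rows; within most lists genes lie on both sides of 0.

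The 2 tested relatives of Nptx1 and Nptx2 in the pentraxin family moved in opposite directions. Nptxr, the membrane-bound receptor of the same family, rose with TGF-alpha to 16.3 ± 0.417 CPM, against 10.4 ± 0.301 CPM in control (SD, n = 2 each), a log2 fold change of 0.65 ± 0.13 (SE, adjusted p = 0.00137). Ptx3, a long pentraxin of innate immunity, fell to 139 ± 2.65 CPM with TGF-alpha, against 368 ± 7.05 CPM in control, a log2 fold change of -1.41 ± 0.05 (SE, adjusted p = 2.91e-11). Relative to TGF-alpha alone, Nptxr fell by 0.64 and Ptx3 rose by 1.27 on the log2 scale with TGF-alpha plus gefitinib (adjusted p = 0.00138 and 8.73e-11). These were the only 2 other genes of the family with enough counts to test. Crp and Apcs had no count in any library. Of the AMPA receptor subunits that neuronal pentraxins bind at synapses, Gria1 and Gria2 had no count, Gria4 had at most 0.0800 CPM in a library, and Gria3 alone was tested. Gria3 fell to 59.0 ± 3.04 CPM with TGF-alpha, against 76.8 ± 1.5 CPM in control, a log2 fold change of -0.38 ± 0.07 (SE, adjusted p = 0.00049). Of the 6 tested genes on the AMPA receptor list, 1 rose and 2 fell with TGF-alpha, beside 15.9% and 14.0% of all genes tested.

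Of 17 tested genes of vesicle priming and the active zone, 7 rose and 1 fell with TGF-alpha. When gefitinib was added, 7 fell and 1 rose. Over all genes tested, 15.9% rose and 14.0% fell with TGF-alpha, and 16.9% fell and 17.0% rose with gefitinib added. The list median was 0.28 and -0.25 on the log2 scale, beside 0.00 and 0.01 for all genes. Rab3b, a small GTPase that marks secretory vesicles, rose with TGF-alpha to 35.0 ± 3.58 CPM, against 6.75 ± 0.272 CPM in control (log2 fold change 2.37 ± 0.13 SE, adjusted p = 3.95e-09). With TGF-alpha plus gefitinib it was at 7.73 ± 0.946 CPM, a log2 fold change of -2.18 ± 0.13 (SE) against TGF-alpha (adjusted p = 8.45e-09). Rab3d, of the same family, rose by 1.24 ± 0.17 (SE, adjusted p = 3.9e-05) with TGF-alpha and fell by 1.04 with gefitinib (adjusted p = 0.000169). Rims1, an active zone partner of UNC13 proteins, had no more than 0.145 CPM in any library.

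The paralogs of Unc13c are named after their values were seen. Unc13a rose with TGF-alpha to 4.06 CPM, against 1.17 CPM in control, a log2 fold change of 1.83 ± 0.37 (SE, adjusted p = 0.00145). Its control libraries were apart, at 1.64 and 0.700 CPM, and without control replicate 1 the value was 2.52 and without control replicate 2 it was 1.30. With gefitinib added, Unc13a fell by 1.73 ± 0.37 on the log2 scale (SE, adjusted p = 0.00192). For Unc13d the log2 fold change with TGF-alpha was 1.17 ± 0.43 (SE, adjusted p = 0.052), with adjusted p from 0.008 to 0.366 under the alternatives and calls without the filter on low counts, on the compared libraries alone and without either library of TGF-alpha plus gefitinib (0.0357 without replicate 1 and 0.0342 without replicate 2). For Unc13b the log2 fold change was -0.35 ± 0.32 (SE, adjusted p = 0.463).

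**Figure D3:**
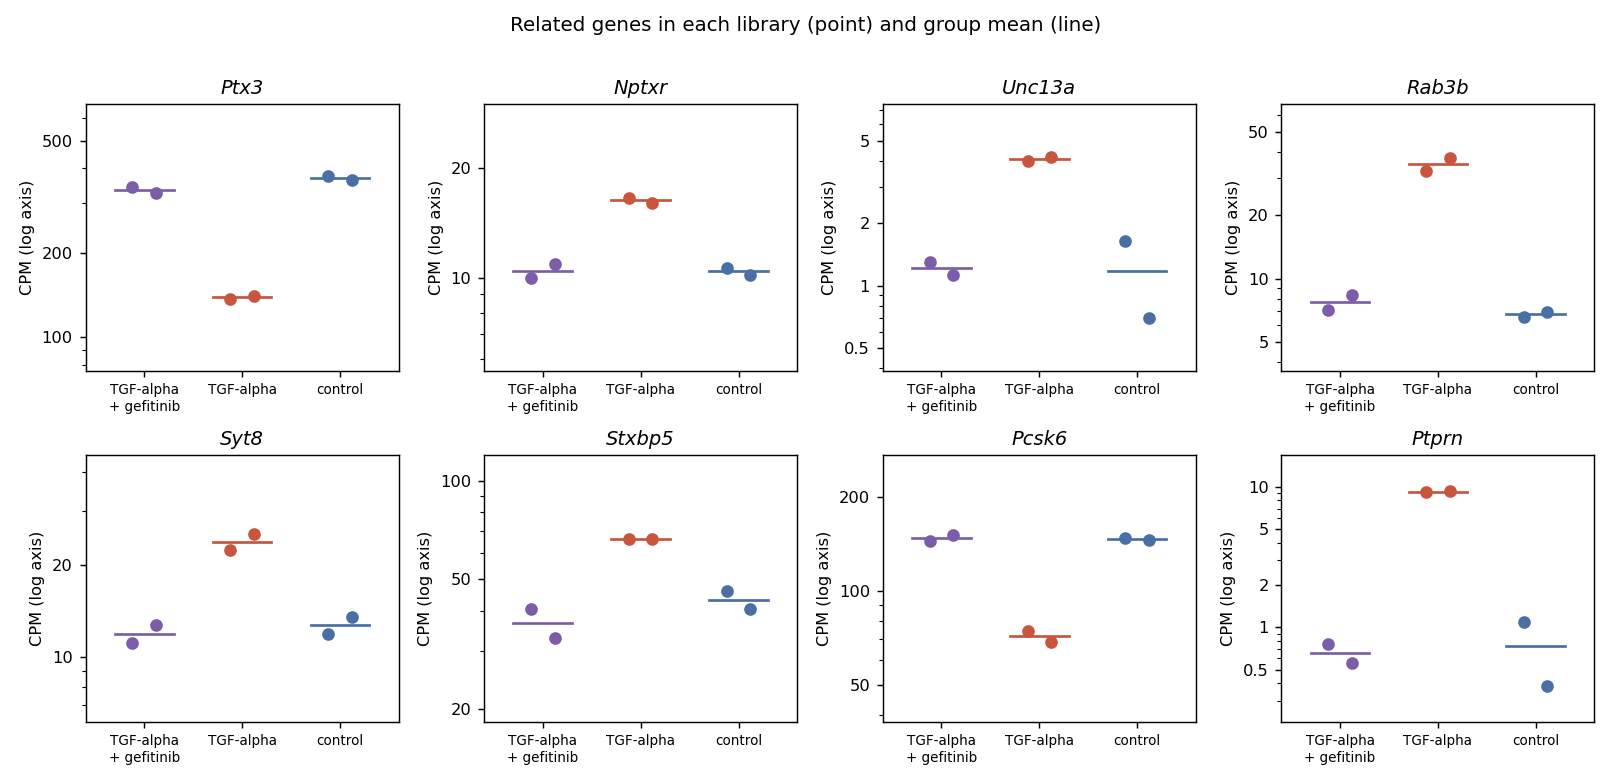
CPM of 8 related genes on a log axis in TGF-alpha plus gefitinib, TGF-alpha and control libraries, each point 1 library and each line the mean of 2. In Nptxr, Unc13a, Rab3b, Syt8, Stxbp5 and Ptprn the TGF-alpha libraries lie above all others, and in Ptx3 and Pcsk6 they lie below.

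Among 14 tested synaptotagmins and relatives other than Syt1, 4 rose and 1 fell with TGF-alpha, and 9 were not called. Of these calls, a rise (Sytl1) and the fall (Syt13) were lost under the DESeq2 Wald test and against a 1.2-fold change. Over all genes tested, 15.9% rose and 14.0% fell. Syt8 rose to 23.8 ± 2.03 CPM with TGF-alpha, against 12.7 ± 1.2 CPM in control, a log2 fold change of 0.90 ± 0.12 (SE, adjusted p = 6.02e-05), and with gefitinib it fell by 1.00 on the log2 scale (adjusted p = 2.21e-05). Syt2, a paralog of Syt1 that serves fast release in some neurons, had no count, and Syt5 had 10 reads in all. Of 21 tested SNAREs and complexins, 7 rose and 2 fell with TGF-alpha. When gefitinib was added 3 rose and 3 fell, beside 17.0% and 16.9% of all genes tested. With TGF-alpha plus gefitinib against control 5 rose and 0 fell, beside 5.27% and 4.26%. Of these 5, Vamp5 was also called against a 1.2-fold change, while Napa and Stx4a were not. Stxbp5, the syntaxin-binding protein tomosyn, rose by 0.63 ± 0.09 (SE, adjusted p = 0.000108) on the log2 scale with TGF-alpha and fell by 0.85 when gefitinib was added (adjusted p = 5.73e-06). Stx4a, a syntaxin of the cell surface in many tissues, rose by 0.42 ± 0.06 (SE, adjusted p = 9.54e-05) with TGF-alpha. It was also above control with TGF-alpha plus gefitinib, by 0.26 ± 0.06 (SE, adjusted p = 0.0168). Neither the DESeq2 Wald test nor the test against a 1.2-fold change called that difference, which ran from 0.20 to 0.30 under the alternatives. Snap25, the neuronal SNARE partner of Syt1, had 1 read in all libraries together, whereas its widely expressed relative Snap23 was at 31.7 ± 0.286 CPM with TGF-alpha and 32.1 ± 1.2 CPM in control (log2 fold change -0.02 ± 0.09 SE, adjusted p = 0.917).

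Of 7 tested synaptic vesicle proteins and transmitter transporters, 1 rose with TGF-alpha, beside 15.9% of all genes tested. The other 6 were not called, and 2 of the 7 fell with gefitinib, beside 16.9%. The one that rose was Sv2c, a vesicle membrane glycoprotein, with 3.82 and 5.02 CPM in the TGF-alpha libraries, against 1.95 and 1.46 CPM in the control libraries (log2 fold change 1.38 ± 0.30 SE, adjusted p = 0.00294), and without TGF-alpha replicate 2 it was not called (adjusted p = 0.0527). It fell by 2.43 ± 0.35 on the log2 scale with gefitinib (SE, adjusted p = 6.58e-05). Syp, which encodes the vesicle protein synaptophysin, had 60 reads in all libraries.

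Acetylcholinesterase, the enzyme that the PRIMA1 protein anchors, was hardly represented. Ache had 20 reads in all 6 libraries together, with 3 and 0 in the TGF-alpha plus gefitinib libraries, 5 and 4 in the TGF-alpha libraries and 7 and 1 in the control libraries, and it was not tested. Colq, its collagen tail in muscle, had 15 reads in all. The related enzyme gene Bche had 33 reads with TGF-alpha plus gefitinib and 1 with TGF-alpha, a ratio of 33.6 (counting interval 5.63 to 1368). That difference was called (adjusted p = 0.00121), but Bche passed the filter only through the libraries with gefitinib, at 23 and 10 reads. In control Bche had 5 and 3 reads, and TGF-alpha against control was not called (adjusted p = 0.127). TGF-alpha plus gefitinib was 4.34-fold above control on summed counts (1.97 to 10.9), also not called (adjusted p = 0.0586). Of 5 tested genes on the cholinergic list 2 fell with TGF-alpha, beside 14.0% of all genes tested, and both encode nicotinic receptor subunits. Chrna4 had 6 reads with TGF-alpha, all in 1 of the 2 libraries, against 85 reads in control. That was 13.7-fold lower, with a counting interval of 6.05 to 38.4 (adjusted p = 0.000246), and 83 reads were seen with TGF-alpha plus gefitinib. Its fitted log2 fold change was -3.71, and it was -2.74 without TGF-alpha replicate 1 and -8.37 without TGF-alpha replicate 2, the library that holds the reads. Chrna7 had 1 read with TGF-alpha against 28 in control, a ratio of 0.0369 with a counting interval of 0.000902 to 0.223 (adjusted p = 0.00244), and 24 reads with TGF-alpha plus gefitinib. It passed the filter only through libraries in which it was high. These were the control libraries, at 13 and 15 reads, and TGF-alpha plus gefitinib replicate 2, at 16 reads. With 1 read in the TGF-alpha libraries, the fitted values of Chrna7 against control and of Bche with gefitinib against TGF-alpha (log2 fold changes of -4.46 and 4.75) were -3.60 and 3.89 without TGF-alpha replicate 1 and -6.79 and 7.07 without TGF-alpha replicate 2.

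Of 7 tested proprotein convertases other than Pcsk2, 3 fell with TGF-alpha, beside 14.0% of all genes tested, and the other 4 were not called. The largest fall was that of Pcsk6, also known as PACE4, a convertase of the constitutive pathway, which had 71.5 ± 4.09 CPM with TGF-alpha, against 147 ± 1.10 CPM in control, a log2 fold change of -1.04 ± 0.06 (SE, adjusted p = 5.08e-09). With TGF-alpha plus gefitinib it was at 148 ± 4.23 CPM, a rise of 1.05 ± 0.06 (SE) on the log2 scale against TGF-alpha (adjusted p = 4.45e-09). Pcsk1, the other convertase of dense core granules, had 1 read in all, and Scg5, which encodes the chaperone that PCSK2 needs to become active, had 5 reads. Among 8 tested genes of dense core granules and peptide processing, 3 rose and 3 fell with TGF-alpha, beside 15.9% and 14.0% of all genes. Ptprn, a granule membrane protein also known as IA-2, rose to 9.27 ± 0.0538 CPM with TGF-alpha, against 0.737 ± 0.502 CPM in control, a log2 fold change of 3.69 ± 0.35 (SE, adjusted p = 1.06e-06). That value was 4.57 without control replicate 1 and 3.07 without control replicate 2. It fell by 3.79 ± 0.35 (SE) on the log2 scale with TGF-alpha plus gefitinib against TGF-alpha (adjusted p = 9.62e-07). Ptprn was far above the filter on low counts only in the TGF-alpha libraries, in which it was high.

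Processing enzymes on the same list moved both ways. Qpct, which forms the pyroglutamate end of peptides, rose by 1.61 ± 0.35 (SE, adjusted p = 0.00263) on the log2 scale with TGF-alpha, and Cpd, a carboxypeptidase, by 0.27 ± 0.05 (SE, adjusted p = 0.00166). Pam, which amidates peptides, had 376 ± 4.18 CPM with TGF-alpha, against 525 ± 15.9 CPM in control (log2 fold change -0.48 ± 0.05 SE, adjusted p = 1.46e-06). Cpm, a membrane carboxypeptidase, fell by 1.41 ± 0.09 (SE, adjusted p = 2.77e-08), and both rose when gefitinib was added (adjusted p = 9.86e-06 for Pam and 2.12e-07 for Cpm). Chga, the main granin of endocrine granules, had no count. Of 6 tested peptide precursors 3 rose with TGF-alpha, beside 15.9% of all genes tested, and the other 3 were not called. Penk, the enkephalin precursor and a very abundant transcript in these cells, had 2941 ± 136 CPM with TGF-alpha plus gefitinib, 5347 ± 320 CPM with TGF-alpha and 4090 ± 218 CPM in control. It rose by 0.39 ± 0.05 (SE, adjusted p = 4.02e-05) with TGF-alpha, fell by 0.86 with gefitinib added (adjusted p = 8.62e-09) and was below control by 0.48 with TGF-alpha plus gefitinib (adjusted p = 3.85e-05).

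Genes that neurons switch on with activity made up another list. Of 21 tested members other than Nptx2, 12 rose and 2 fell with TGF-alpha, beside 15.9% and 14.0% of all genes tested. When gefitinib was added, 13 fell and 1 rose, beside 16.9% and 17.0%. The list medians were 0.70 and -0.65 on the log2 scale. Many genes of the list are also general early response genes of growth factor signalling. Arc, a synaptic cytoskeletal gene, rose with TGF-alpha to 26.8 ± 0.305 CPM, against 2.14 ± 0.487 CPM in control (log2 fold change 3.62 ± 0.18 SE, adjusted p = 1.08e-09). Egr1, a zinc finger factor, rose by 2.38 ± 0.15 (SE, adjusted p = 2e-08) and Junb, an AP-1 subunit, by 1.58 ± 0.09 (SE, adjusted p = 3.36e-09). With TGF-alpha plus gefitinib against TGF-alpha, Arc fell by 4.54, Egr1 by 2.64 and Junb by 1.65 (adjusted p = 2.94e-10, 7.81e-09 and 2.51e-09).

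Rest, which encodes the repressor that keeps many neuronal genes silent outside the nervous system, was not called. It averaged 19.6 ± 2.72 CPM with TGF-alpha plus gefitinib, 22.5 ± 2.22 CPM with TGF-alpha and 21.7 ± 1.15 CPM in control, and its log2 fold change with TGF-alpha was 0.05 ± 0.12 (SE, adjusted p = 0.807). Of the 9 tested genes on the list of its corepressor complex, Rest included, 1 rose with TGF-alpha and the other 8 were not called. With gefitinib added, 2 fell. Over all genes tested, 15.9% rose with TGF-alpha and 16.9% fell with gefitinib added.

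The neighbours of the 6 genes on their chromosomes were looked at to see whether differences extended beyond them, taking on each side the nearest tested protein-coding gene. With TGF-alpha against control, 1 of these 12 neighbours rose and 2 fell, beside 15.9% and 14.0% of all genes tested, and 1 of the 12 was called without TGF-alpha replicate 1, TGF-alpha replicate 2 or control replicate 2. With TGF-alpha plus gefitinib against TGF-alpha, Bri3, Fam214a, Pawr and Asb2 rose and Trrap, Btbd7 and Otor fell, beside 17.0% and 16.9% of all genes tested, and 5 to 7 of the 12 were called when 1 library was left out. With TGF-alpha plus gefitinib against control, 1 of the 12 rose and 1 fell, beside 5.27% and 4.26% of all genes tested. Bri3 was higher by 0.91 ± 0.11 on the log2 scale (SE, adjusted p = 8.33e-05). Trrap was lower by 0.20 ± 0.05 (SE, adjusted p = 0.0164) and was not called against a 1.2-fold change. Nptx1 lies between Endov and Rptor, and neither was called with TGF-alpha against control (adjusted p = 0.107 and 0.277). The largest difference with TGF-alpha was in Asb2, which encodes a ubiquitin ligase subunit of muscle and blood cells and lies 78992 bases beyond the start of Prima1. Asb2 had 48 reads with TGF-alpha plus gefitinib, 1 with TGF-alpha and 32 in control, so its TGF-alpha level was 31-fold lower than in control, with a counting interval of 5.18 to 1262 (adjusted p = 0.000607). Its fitted log2 fold change of -4.64 was -3.79 without TGF-alpha replicate 1 and -6.97 without TGF-alpha replicate 2. On the other side of Prima1, Btbd7 had a log2 fold change of 0.08 ± 0.07 (SE, adjusted p = 0.425) with TGF-alpha and of -0.24 ± 0.07 (SE, adjusted p = 0.0158) when gefitinib was added. The other 2 calls with TGF-alpha were Bri3 beside Nptx2 (0.36, adjusted p = 0.0249) and Fam214a beside Unc13c (-0.31, adjusted p = 0.0408), and both were lost without 1 or another library, to adjusted p = 0.257 for Bri3 and 0.163 for Fam214a without control replicate 2.

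Lists of markers were used to check which cells the libraries held. All 10 chondrocyte markers were present at 5 CPM or more in every library, and their summed level was 57811 to 60260 CPM with TGF-alpha plus gefitinib, 33607 to 34672 CPM with TGF-alpha and 65233 to 69844 CPM in control. All 10 fell with TGF-alpha and rose when gefitinib was added, beside 14.0% and 17.0% of all genes tested. Of 17 neuron markers, 8 or 9 were at 0 in each library, and their sum was 28.8 to 32.8 CPM with TGF-alpha plus gefitinib, 19.4 to 22.1 CPM with TGF-alpha and 35.1 to 37.8 CPM in control. Most of that sum was Map2, which fell by 1.21 ± 0.13 (SE, adjusted p = 4.8e-06) with TGF-alpha. Without Map2 the other 16 markers summed to 8.96 to 9.39 CPM with TGF-alpha plus gefitinib, 8.87 to 9.09 CPM with TGF-alpha and 9.21 to 9.23 CPM in control. Single markers ran in different directions. Stmn2 had 2 and 2 reads with TGF-alpha plus gefitinib, 13 and 13 with TGF-alpha and 0 and 8 in control, and it fell when gefitinib was added (log2 fold change -2.60 ± 0.86 SE, adjusted p = 0.0303), a call that was lost without any one of the 4 libraries compared (adjusted p = 0.109 to 0.142). Stmn2 also passed the filter on low counts only through the TGF-alpha libraries, in which it was high. Isl1 had 7 and 2 reads with TGF-alpha plus gefitinib, 8 and 14 with TGF-alpha and 2 and 4 in control, and was not tested. Rbfox3 had no count and Dcx had 2 reads.

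Of 10 Schwann cell and glia markers, 1 to 3 were at 0 in each library, and their sum was 128 to 134 CPM with TGF-alpha plus gefitinib, 71.3 to 73.6 CPM with TGF-alpha and 91.0 to 98.7 CPM in control. S100b, which chondrocytes also express, gave most of it, at 62.3 to 113 CPM. Sox10 had 2 reads in all, Foxd3 had none, and Ngfr fell by 2.57 ± 0.30 (SE, adjusted p = 1.04e-05) with TGF-alpha and rose by 2.67 with gefitinib (adjusted p = 6.29e-06). Ngfr was at 0.865 and 1.96 CPM in the 2 TGF-alpha libraries. Its log2 fold change with TGF-alpha ran from -3.28, without replicate 2 of that group, to -2.10 under the alternatives. The 8 neuroendocrine markers summed to 0.720 to 0.822 CPM with TGF-alpha plus gefitinib, 0.0727 to 0.361 CPM with TGF-alpha and 0.390 to 1.27 CPM in control, with 5 to 7 of them at 0 and none tested. The 10 skeletal muscle markers summed to 6.96 to 8.98 CPM with TGF-alpha plus gefitinib, 8.0 to 8.73 CPM with TGF-alpha and 11.4 to 11.9 CPM in control. Of 4 tested, 2 fell with TGF-alpha, beside 14.0% of all genes tested. These were Acta1, by 1.57 ± 0.30 (SE, adjusted p = 0.000879), and Mylpf, by 1.12 ± 0.40 (SE, adjusted p = 0.0477). With gefitinib added, Acta1 rose by 1.21 (adjusted p = 0.00645) and Des fell by 1.45 (adjusted p = 0.0313), beside 17.0% and 16.9%. The part of cells of these other types in the levels of Syt1 and Prima1 was not tested, and in bulk RNA fewer cells of a type cannot be told apart from less RNA per cell.

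**Figure D4:**
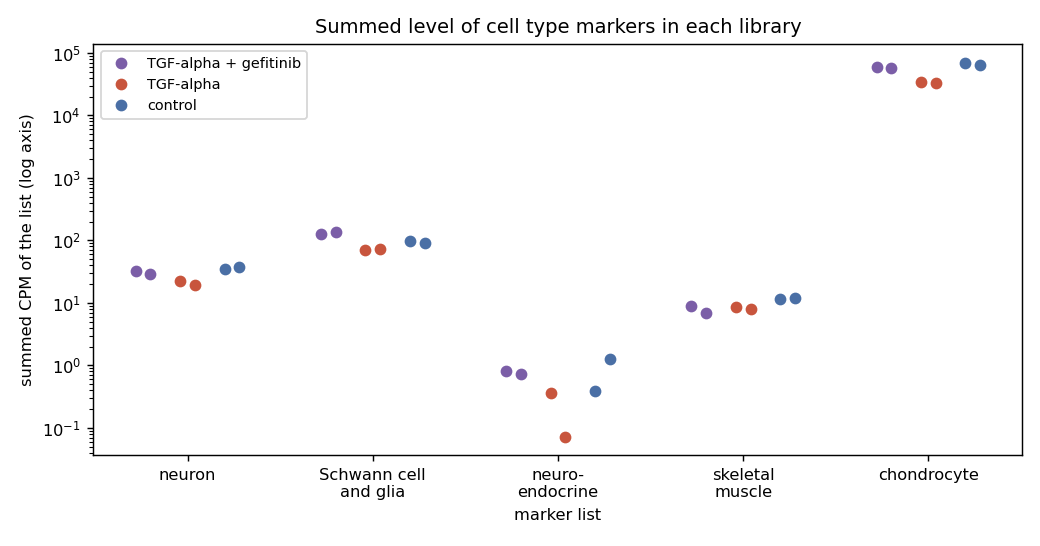
Summed CPM of 5 lists of cell type markers on a log axis, each point 1 library of the TGF-alpha plus gefitinib, TGF-alpha and control groups. Chondrocyte markers stand at 33607 CPM or more in every library and neuron markers at or under 37.8 CPM, and both are lowest in the TGF-alpha libraries.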

How the data were processed

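RNA of 6 libraries was sequenced, and the authors deposited 1 table of unnormalized read counts per gene symbol, as whole numbers, with 1 column per library. Reads were placed on GRCm38, as the submitters' processing notes name that build. Not given in the sources used here are the aligner, the counter, its annotation and any use of strand, and how the counting split reads between overlapping or near-identical genes is unknown. Total counts were 12317407 to 16096263 per library and 20600 to 21067 genes had a count. Replicates differed beyond counting noise (chi-square per degree of freedom 3.16 to 4.02), so none was counted as a duplicate.

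The edgeR package (version 4.0.16, under R 4.3.3) was run on the deposited counts as follows: filterByExpr with a minimum count of 10 (15362 genes kept), TMM scaling, and a quasi-likelihood model of group over all 6 libraries (3 residual and 11.2 prior degrees of freedom), checked on simulated data. Tests were two-sided, Benjamini-Hochberg adjusted over all tested genes, and called at an adjusted p under 0.05. SE is the size of the log2 fold change divided by the square root of F. Counting ratios have exact 95% binomial intervals. Alternatives included DESeq2 1.42.0. Replicate numbers showed no visible pairing of libraries (correlation of deviations from group means -0.0228 to 0.0108), which cannot exclude a shared culture or batch. Sequences came from RefSeq (GRCm38.p6) and positions from GENCODE M21; 4 of the 6 genes had a promoter window. The 6 genes and all lists were chosen with earlier results of these data known. Named relatives were, per list, comparison and direction, up to 3 called genes with the smallest p, or else the 2 with the highest mean CPM, of which some are printed; list genes given only by their counts, single paralogs, partners and markers were named after their values were seen. Likeness used log2 CPM with a prior count of 2, with 5 genes named for Nptx1 and 3 for each other gene.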

Additional observations from a re-analysis of the deposited data

How the results depend on the processing

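The alternatives were DESeq2 size factors, no filter on low counts, a mean of at least 5 CPM and a test against a 1.2-fold change. Further ones were the DESeq2 Wald test, only the libraries compared, a replicate block and leaving out each library. For the 6 genes a smaller prior count was added, while the minimum of 5 CPM and the 1.2-fold test were not used. Genes called with TGF-alpha against control, TGF-alpha plus gefitinib against TGF-alpha, and TGF-alpha plus gefitinib against control were 4600, 5217 and 1463, and 56, 55 and 13 on the 12 lists. Against a 1.2-fold change they were 2319, 2669 and 277, and 35, 36 and 3. With DESeq2's Wald test 946 genes were called between TGF-alpha plus gefitinib and control, 7 of them on the lists. For that comparison leaving out a library gave 649 to 1291 genes and 3 to 11 on the lists, with the fewest genes without control replicate 2 (649), control replicate 1 (666) and TGF-alpha plus gefitinib replicate 2 (893). The cause was not tested, but these fits have fewer samples. The other counts stayed within 1.5 times. With the replicate block 4450, 5042 and 1335 genes were called, and 57, 54 and 12 on the lists; the libraries share only a number. Of the 6 genes, Nptx1 changed direction between TGF-alpha plus gefitinib and control, with -1.10 to 0.166 on the log2 scale when a library was left out, and the value of Nptx2 in that comparison could not be fitted on the compared libraries alone, where it failed the filter. Every other log2 fold change of the 6 genes kept its direction under the alternatives run. With CPM not divided by length, 4 of the 6 genes took another place in the order of levels with TGF-alpha plus gefitinib, 2 with TGF-alpha and 2 in control. Nptx2 is limited by depth, with at most 35 reads in a library.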
